A study of Rattus norvegicus with 70 samples.

Results

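The livers of 3 female Sprague-Dawley rats given bisphenol A (BPA) were compared with those of 3 female rats given vehicle. These 6 libraries, of 70 in the series, were chosen by their labels (liver, female, BPA or vehicle) and by no measured value. Pregnant dams received BPA by mouth at 500 mg/kg/day, beginning on gestational day 6 and ending on day 6 of lactation. Litters were reduced on postnatal day (PND) 4 to 3 pups of each sex. The pups were then dosed by mouth at 250 mg/kg/day, starting at PND 7 and ending at PND 63, the age at which livers were taken. Vehicle rats followed the same schedule without bisphenol. A further group of 3 female rats, called Mix, had the same total dose made up of BPA (160 mg/kg/day in dams), bisphenol F (160 mg/kg/day) and bisphenol S (180 mg/kg/day). It was used here for the spread between rats and for a direct comparison with BPA. The labels name no litter for any rat, so rats of a group may be littermates. The p-values measure the spread between these rats only.

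BPA is a plastics monomer that binds oestrogen receptors weakly, binds the oestrogen-related receptor gamma, and is cleared by glucuronidation in the liver. The adult rat liver differs strongly between the sexes. The pattern of growth hormone release, pulsatile in males and more continuous in females, acts through the growth hormone receptor and STAT5b and keeps some hepatocyte genes high in females and others high in males. Liver also holds receptors that sense foreign chemicals and bile acids, among them CAR (Nr1i3), PXR (Nr1i2) and FXR (Nr1h4), whose target genes include cytochromes P450 of family 2B and 3A and the repressor SHP (Nr0b2).

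Each library held 6071150 to 8940809 counts of 3' mRNA tags, and 9554 genes had enough counts to be tested. Values are CPM (counts scaled to a common library total) adjusted between libraries by TMM, a factor computed from the bulk of the genes. Albumin, the main secreted product of hepatocytes, stood at 108059, 99764 and 86561 CPM in the vehicle rats and 58822, 52388 and 53408 CPM in the BPA rats, and the Y-linked gene Eif2s3y had 0 counts in all 9 female livers. Ribosomal RNA took 13.9 to 24.2% of the counts in vehicle rats and 18.9 to 20.1% in BPA rats, with vehicle rat 1 the lowest. Summed markers of hepatocytes (12 genes) ran from 134765 to 158792 CPM of all counts in vehicle and from 103482 to 105131 in BPA livers, without overlap. Markers of Kupffer cells (15 genes with a row) summed to 735 to 829 against 863 to 1123 CPM. Those of stellate cells (13 genes) summed to 222 to 302 against 325 to 375 and those of bile duct cells (11 genes) to 35.2 to 53.5 against 62.3 to 73.1. Sums follow the most abundant members. Of 11 tested stellate markers 5 log2 differences were positive and 6 negative (median -0.18). In the Kupffer list 10 of 15 were positive, in the bile duct list 5 of 7, and in the hepatocyte list 10 of 12 were negative. Red cell markers (12 genes) summed to 4591 to 5824 against 6503 to 12038, and fat cell markers (7 genes) to 91.3 to 136 against 144 to 160. Other cell types did not follow. Sinusoidal endothelial markers (12 genes) overlapped, at 357 to 411 against 360 to 429, with 7 of 11 tested differences negative. Lymphocyte markers (14 genes) overlapped too, at 25.4 to 34.8 against 20.5 to 38.5, as did neutrophil markers (11 genes), at 2.82 to 17.7 against 4.77 to 19.9. Hepatocyte markers of the 2 zones of the lobule were listed apart. Of 13 tested periportal markers 9 were positive (median 0.29), and of 13 pericentral markers 10 were negative (median -0.41). None of the marker genes in these lists changed by the test except Ass1, a periportal marker. In bulk tissue, fewer cells of a type and less RNA per cell cannot be told apart, and the part of these shifts in the results was not tested.

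In BPA livers 40 of the 9554 genes changed at an adjusted p below 0.05 (0.419%), of which 24 rose (0.251%) and 16 fell (0.167%). The genes that rose included the amine methyltransferase Inmt, the retinol-binding protein Rbp7, the glucocorticoid-activating enzyme Hsd11b1, the acute phase protein Orm1 and the bile acid pathway repressor Nr0b2. The genes that fell included the keratin Krt23, the plasma proteins A1bg and Cp, the cytokine receptor subunit Lifr and the thyroid hormone deiodinase Dio1. The smallest rise past the threshold was 1.86-fold (Nfkbia), and the smallest fall was 0.97 on the log2 scale (Alcam). In all 40 genes the 3 BPA rats lay on 1 side of the 3 vehicle rats, which was also the case for 731 genes with BPA higher (7.65%) and 770 with BPA lower (8.06%) among all genes. The median log2 difference over all genes was 0.003.

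**Figure D1:**
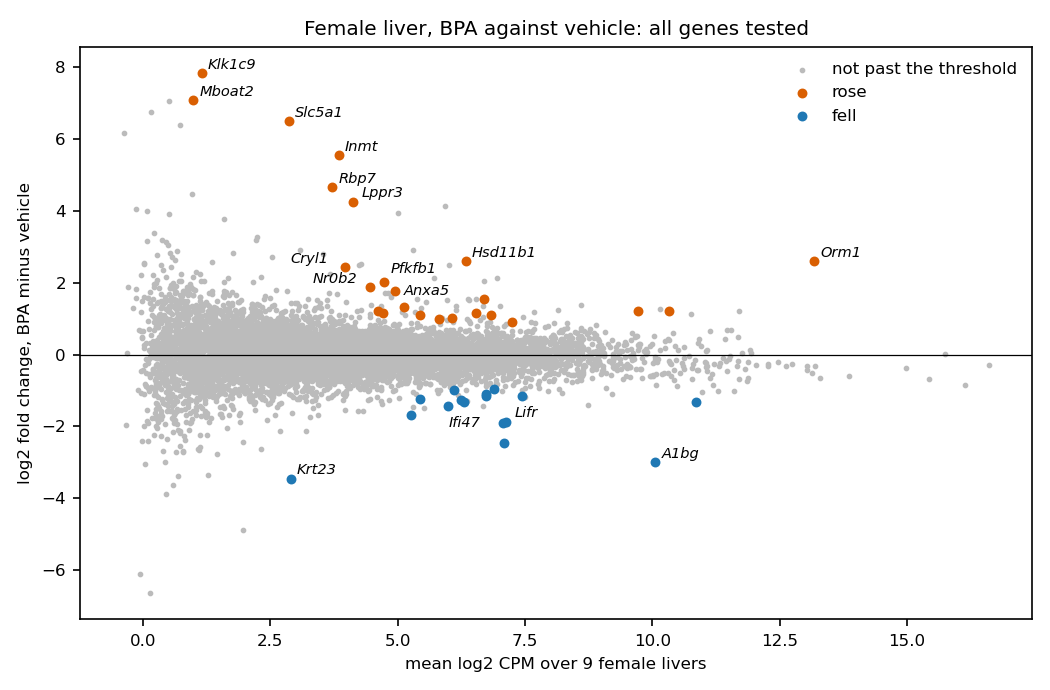
Log2 fold change, BPA minus vehicle (vertical axis), against mean log2 CPM over the 9 female livers (horizontal axis) for the 9554 genes tested. Orange points are the 24 genes that rose and blue points the 16 that fell; the fitted values of Klk1c9 and Mboat2, which had no counts in vehicle rats, depend on the prior count and are no estimate of size.

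With 3 rats in a group, most calls were lost in at least 1 fit that left out a library. Such a fit also has fewer libraries to estimate the spread, and the part of this in the losses was not tested. Leaving out each of the 9 libraries in turn gave 11, 8 and 23 changed genes without vehicle rat 1, 2 and 3, then 16, 41 and 41 without BPA rat 1, 2 and 3, and 22, 17 and 18 without Mix rat 1, 2 and 3. With the ribosomal RNA share of each library as a covariate 21 genes passed, 18 of them among the 40. Every log2 difference of the 40 genes kept its sign in all 9 leave-one-out fits. This was nearly fixed in advance, since the vehicle and BPA rats do not overlap in any of the 40. Of the 40, 34 missed the threshold in at least 1 of these, with adjusted p up to 0.217, and 6 passed in all 9: Inmt, Rbp7, Nr0b2 and Aqp9, which rose, and Lifr and Krt23, which fell. The fold moved by over 1.5 times in 5 genes, of which Slc5a1 and Klk1c9 had 2 and 0 counts in vehicle rats: without vehicle rat 1 the log2 difference of Slc5a1 was 9.24, and without BPA rat 1 that of Cryl1 was 1.32, of Orm1 1.86, of Lppr3 3.66 and of Klk1c9 7.16.

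The promoters of the 6 genes that passed in all of these fits are shown because they carry the steadiest differences of the comparison. Each runs from 250 bases before the annotated start to 50 bases after it, is read 5' to 3' on the gene's strand, and comes from RefSeq on the GRCr8 build, which is not the rn6 build of the counts. Capitals mark matches to TATAAA, the core of a TATA box, or to TTCNNNGAA, the palindrome that STAT factors bind; AGGTCA, the half-site of many nuclear receptors, was also searched on both strands and has no match in these windows.
Inmt, chr4:85652706-85653005, minus strand: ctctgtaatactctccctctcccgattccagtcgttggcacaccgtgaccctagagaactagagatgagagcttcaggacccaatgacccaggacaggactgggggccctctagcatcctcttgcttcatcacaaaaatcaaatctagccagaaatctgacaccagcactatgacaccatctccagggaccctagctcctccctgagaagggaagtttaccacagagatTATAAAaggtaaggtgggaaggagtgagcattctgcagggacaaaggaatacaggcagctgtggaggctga
Rbp7, chr5:165177350-165177649, minus strand: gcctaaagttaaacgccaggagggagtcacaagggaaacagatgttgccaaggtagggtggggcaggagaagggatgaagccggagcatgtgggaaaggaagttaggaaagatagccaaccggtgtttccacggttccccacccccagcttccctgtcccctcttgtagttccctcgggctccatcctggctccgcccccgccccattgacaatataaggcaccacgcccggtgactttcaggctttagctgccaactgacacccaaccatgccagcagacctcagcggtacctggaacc
Nr0b2, chr5:151062910-151063209, plus strand: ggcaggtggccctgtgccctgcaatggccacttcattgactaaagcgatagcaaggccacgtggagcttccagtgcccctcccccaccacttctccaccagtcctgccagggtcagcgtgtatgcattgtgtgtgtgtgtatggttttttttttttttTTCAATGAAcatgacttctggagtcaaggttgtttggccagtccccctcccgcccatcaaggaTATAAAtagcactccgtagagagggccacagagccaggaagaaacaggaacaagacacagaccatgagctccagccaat
Aqp9, chr8:80718139-80718438, minus strand: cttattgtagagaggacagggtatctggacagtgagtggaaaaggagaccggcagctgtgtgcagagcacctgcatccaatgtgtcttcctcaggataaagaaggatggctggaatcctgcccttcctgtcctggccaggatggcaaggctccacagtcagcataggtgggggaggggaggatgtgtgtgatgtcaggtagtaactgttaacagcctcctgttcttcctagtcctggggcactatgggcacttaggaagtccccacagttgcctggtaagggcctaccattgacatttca
Lifr, chr2:57963139-57963438, plus strand: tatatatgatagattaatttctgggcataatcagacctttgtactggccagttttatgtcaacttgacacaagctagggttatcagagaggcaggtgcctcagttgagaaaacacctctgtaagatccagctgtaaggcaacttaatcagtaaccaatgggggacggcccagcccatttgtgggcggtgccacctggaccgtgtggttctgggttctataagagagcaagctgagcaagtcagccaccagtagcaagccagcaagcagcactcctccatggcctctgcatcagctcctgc
Krt23, chr10:84946880-84947179, minus strand: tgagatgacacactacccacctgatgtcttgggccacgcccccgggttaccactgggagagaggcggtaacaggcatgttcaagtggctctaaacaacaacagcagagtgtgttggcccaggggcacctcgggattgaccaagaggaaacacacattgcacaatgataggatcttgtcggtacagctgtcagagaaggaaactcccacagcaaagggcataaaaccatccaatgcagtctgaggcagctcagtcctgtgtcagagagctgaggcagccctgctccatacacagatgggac
The Inmt window holds TATAAA from base -21 and the Nr0b2 window from base -29, counted from the start, and Nr0b2 also holds TTCNNNGAA from base -92. RefSeq gave a promoter for 32 of the 40 genes. TATAAA, a motif added after the sequences had been seen, occurs in 6 of 19 promoters of rising genes (31.6%), in 1 of 13 of falling genes (7.69%) and in 14.2% of all 33469 promoters of this length. TTCNNNGAA occurs in 10.5% of the rising, 15.4% of the falling and 8.87% of all promoters, and AGGTCA in 5.26%, 15.4% and 16.2%.

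Among enzymes of small molecules, Inmt, which methylates tryptamine and other amines, was at 0.845, 0.754 and 0.577 CPM in the vehicle rats and 44.0, 13.3 and 46.6 CPM in the BPA rats. BPA rats 1 and 3 stood together and rat 2 lay lower, still far above every vehicle rat. Inmt rose (log2 difference 5.53 ± 0.51 SE, 46.4-fold, edgeR adjusted p = 0.000229), and it missed the threshold only with limma-voom among the alternative tests. In 20 tested genes of methyl transfer, a list that also holds enzymes of the methionine cycle, Inmt was the member that rose, none fell, and the median log2 difference was 0.18 against 0.003 over all genes. Gstm1, a glutathione transferase of the mu class whose reads may be shared with near-identical relatives, was at 567, 553 and 453 CPM in vehicle and 1578, 829 and 1206 CPM in BPA rats. The lowest BPA rat was above the highest vehicle rat, and Gstm1 rose (log2 difference 1.20 ± 0.23 SE, 2.30-fold, edgeR adjusted p = 0.0406). It was the only member past the threshold of 37 conjugation enzymes, whose median was 0.09. Cryl1, a dehydrogenase of the glucuronate pathway, had 5.56, 5.73 and 5.34 CPM in vehicle and 61.4, 12.9 and 14.7 CPM in BPA rats. BPA rat 1 was set apart from the other two, and the rise (log2 difference 2.42 ± 0.49 SE, 5.36-fold, edgeR adjusted p = 0.0477) missed the threshold without that rat (adjusted p = 0.0973).

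Single genes of carbohydrate and nitrogen metabolism rose. Pfkfb1, the liver enzyme that makes and breaks down fructose 2,6-bisphosphate, a switch between glycolysis and gluconeogenesis, stood at 6.52, 7.99 and 10.8 CPM in vehicle and 39.01, 32.2 and 31.6 CPM in BPA rats. The groups were far apart and Pfkfb1 rose (log2 difference 2.02 ± 0.33 SE, 4.06-fold, edgeR adjusted p = 0.0198), the only one of 24 genes of these pathways to pass; 15 of the 24 differences were negative (median -0.10). Ass1, the urea cycle enzyme argininosuccinate synthase, was at 879.8, 753 and 689 CPM in vehicle and 1299, 2011 and 2037 CPM in BPA rats. BPA rat 1 was nearest to the vehicle rats, and Ass1 rose (log2 difference 1.20 ± 0.21 SE, 2.30-fold, edgeR adjusted p = 0.0248). In the 28 tested genes of amino acid metabolism and the urea cycle, 19 log2 differences were positive, 7 of them at an unadjusted p below 0.05 against 5.66% of all genes, and none was negative at that level; Ass1 alone passed. Aqp9, the channel through which hepatocytes take up glycerol, was at 62.8, 49.8 and 54.4 CPM in vehicle and 178, 179.8 and 125 CPM in BPA rats. BPA rats 1 and 2 were nearly equal, rat 3 was lower, and Aqp9 rose (log2 difference 1.53 ± 0.20 SE, 2.89-fold, edgeR adjusted p = 0.00446). Slc5a1, the sodium-coupled glucose transporter SGLT1, was close to absent in vehicle rats, with 2 counts in all, against 194, 41 and 19 counts in BPA rats 1, 2 and 3. Slc5a1 rose by a count ratio of 113.3 (95% interval 31.0 to 941, counting error only; edgeR adjusted p = 0.0394).

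The steroid and bile acid genes included 2 that rose. Hsd11b1, which regenerates active glucocorticoid from its inactive 11-keto form, was at 18.7, 23.2 and 24.5 CPM in vehicle and 191, 49.6 and 165 CPM in BPA rats. BPA rat 2 was the lowest of its group and still above every vehicle rat, and Hsd11b1 rose (log2 difference 2.61 ± 0.40 SE, 6.10-fold, edgeR adjusted p = 0.0141). Without vehicle rat 1 or 2 the call was lost, with adjusted p up to 0.0856. Of 24 steroid metabolism genes Hsd11b1 alone passed (median 0.05), as it did among 22 genes of the glucocorticoid response list, of which 15 were positive (median 0.24). Nr0b2, the receptor without a DNA-binding domain that represses bile acid synthesis, was at 8.45, 7.39 and 7.07 CPM in vehicle and 35.5, 26.1 and 22.1 CPM in BPA rats. BPA rat 1 was the highest, all BPA rats were well above the vehicle rats, and Nr0b2 rose (log2 difference 1.87 ± 0.245 SE, 3.65-fold, edgeR adjusted p = 0.00446). Cyp7a1, which Nr0b2 represses and which sets the rate of bile acid production, was at 30.9, 10.9 and 32.8 CPM in vehicle and 7.78, 72.9 and 29.9 CPM in BPA rats. The groups overlapped (log2 difference 0.56 ± 0.63 SE, edgeR adjusted p = 0.802). Cyp8b1, which directs synthesis toward cholic acid, likewise overlapped (log2 difference 0.25 ± 0.345 SE, edgeR adjusted p = 0.843). Nr1h4, the bile acid receptor that induces Nr0b2, had a log2 difference of -0.49 ± 0.23 SE (edgeR adjusted p = 0.44). None of the 13 genes of bile acid synthesis passed, the smallest p belonging to Hsd3b7 (log2 difference 1.47 ± 0.34 SE, edgeR adjusted p = 0.0937). Of 16 genes of bile acid regulation and transport, 12 were negative, with a median of -0.35, and Nr0b2 was the only call.

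Rbp7, a carrier of retinol inside cells, was at 0.604, 0.754 and 1.01 CPM in vehicle and 26.2, 7.64 and 26.8 CPM in BPA rats. As with Inmt, BPA rat 2 was the lowest of its group but well above the vehicle rats, and Rbp7 rose (log2 difference 4.66 ± 0.57 SE, 25.3-fold, edgeR adjusted p = 0.00368), missing the threshold only with limma-voom. Adh7, an alcohol dehydrogenase that oxidises retinol, fell (log2 difference -0.98 ± 0.20 SE, edgeR adjusted p = 0.045). These were the 2 calls among 25 tested retinoid genes, whose median was -0.05, with 12 positive and 13 negative. Lppr3, a phosphatase-like membrane protein, was at 0.604, 1.21 and 1.30 CPM in vehicle and 32.6, 9.15 and 17.02 CPM in BPA rats. BPA rat 1 was the highest, and Lppr3 rose (log2 difference 4.25 ± 0.66 SE, 19.03-fold, edgeR adjusted p = 0.0141). Klk1c9, of the kallikrein family of serine peptidases, and Mboat2, an acyltransferase of membrane phospholipids, had 0 counts in all 3 vehicle rats. Klk1c9 had 57, 22 and 13 counts in the BPA rats, and Mboat2 had 28, 11 and 13. Against a floor of 3 counts per vehicle library the levels were at least 8.52-fold and at least 5.02-fold higher (edgeR adjusted p = 0.0383 and 0.0406).

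Anxa5, a calcium-dependent binder of phosphatidylserine, was at 8.33, 16.9 and 14.7 CPM in vehicle and 34.5, 29.8 and 72.2 CPM in BPA rats. BPA rat 3 was the highest, and Anxa5 rose (log2 difference 1.77 ± 0.34 SE, 3.42-fold, edgeR adjusted p = 0.0394). Tmem98 was at 18.7, 11.5 and 20.5 CPM in vehicle and 49.2, 31.7 and 45.2 CPM in BPA rats. The groups did not overlap, and Tmem98 rose (log2 difference 1.31 ± 0.26 SE, 2.48-fold, edgeR adjusted p = 0.0443). The smaller rises, between 1.86-fold and 2.29-fold, included those of Ngef, an exchange factor for small GTPases, Pkdcc, a secreted tyrosine kinase, Etnk2, an ethanolamine kinase, and RGD1564804. The others were Mknk2, a kinase of the translation factor eIF4E, Hes1, a repressor downstream of Notch, Ier2, an immediate early gene, and Nfkbia, the inhibitor that holds NF-kB in the cytoplasm. Ier2 was the only call of 24 immediate early and heat shock genes, in which 17 log2 differences were negative (median -0.27), so its direction was opposite to that of most of the list.

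Orm1, the acute phase protein alpha-1-acid glycoprotein, was at 1289, 2033 and 3946 CPM in vehicle and 26766, 4579 and 12986 CPM in BPA rats. BPA rat 2 was close to the highest vehicle rat, whereas BPA rat 1 held the highest value of all 9 livers (log2 difference 2.61 ± 0.51 SE, 6.10-fold, edgeR adjusted p = 0.0421). Without BPA rat 1 the adjusted p was 0.104. Cp, the copper-binding plasma protein ceruloplasmin and also an acute phase gene, was at 2644, 2799 and 2679.7 CPM in vehicle and 987, 1473 and 771 CPM in BPA rats. Its groups were far apart, and Cp fell (log2 difference -1.33 ± 0.25 SE, edgeR adjusted p = 0.0394). Of 25 acute phase genes these were the only 2 calls. The list as a whole did not follow Orm1. In it 20 of 25 log2 differences were negative, 8 of them at an unadjusted p below 0.05 against 5.77% of all genes, and the median was -0.39. Complement and coagulation genes had 30 of 35 negative differences (median -0.31) and apolipoprotein and lipoprotein genes 17 of 21 (median -0.34), against 49.5% of all genes, with no call in either list. The smallest p in these lists were those of C3, the central complement protein (log2 difference -0.67 ± 0.19 SE, edgeR adjusted p = 0.161), and Apob, the structural protein of very low density lipoprotein (log2 difference -1.001 ± 0.29 SE, edgeR adjusted p = 0.171). The summed hepatocyte markers, which include Alb (log2 difference -0.84 ± 0.26 SE, edgeR adjusted p = 0.2), were lower in the same BPA rats.

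Of the genes that fell, Krt23, a type I keratin, was at 15.8, 17.3 and 5.63 CPM in vehicle and 1.17, 1.51 and 0.773 CPM in BPA rats. Vehicle rat 3 was the lowest of the controls, yet all BPA rats lay below it, and Krt23 fell to 0.0915 of the vehicle level (log2 difference -3.45 ± 0.495 SE, edgeR adjusted p = 0.0102). It was the only call among 17 keratin and junction genes (median 0.02). A1bg, a secreted protein of the immunoglobulin superfamily that rat liver makes mainly in females, was at 2128, 2348 and 1715 CPM in vehicle and 289, 277 and 208 CPM in BPA rats. The BPA rats all lay far below the lowest vehicle rat, and A1bg fell (log2 difference -2.999 ± 0.47 SE, edgeR adjusted p = 0.0141). Lifr, the receptor subunit for leukaemia inhibitory factor, which signals through STAT3, was at 132, 195 and 243 CPM in vehicle and 66.0, 48.2 and 42.1 CPM in BPA rats. All BPA rats lay below the lowest vehicle rat, and Lifr fell (log2 difference -1.87 ± 0.27 SE, edgeR adjusted p = 0.0114).

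Inhbc, the activin beta-C subunit made by hepatocytes, was at 85.0, 107 and 102 CPM in vehicle and 29.5, 52.0 and 26.8 CPM in BPA rats. The groups did not overlap, and Inhbc fell (log2 difference -1.44 ± 0.25 SE, edgeR adjusted p = 0.0248). Mst1, the hepatocyte-made ligand called macrophage-stimulating protein, was at 224, 219 and 226 CPM in vehicle and 97.8, 133 and 69.5 CPM in BPA rats. The vehicle rats hardly differed, and Mst1 fell (log2 difference -1.15 ± 0.22 SE, edgeR adjusted p = 0.0394). Dio1, which converts thyroxine to active thyroid hormone and is itself induced by that hormone, was at 145, 133 and 94.0 CPM in vehicle and 61.0, 36.9 and 49.8 CPM in BPA rats. Vehicle rat 3 was the nearest to the BPA rats, and Dio1 fell (log2 difference -1.33 ± 0.27 SE, edgeR adjusted p = 0.0475). It was the only call among 12 thyroid hormone response genes, of which 7 were negative (median -0.21). Thrsp, induced by the same hormone and by carbohydrate, had 399, 403 and 442 CPM in vehicle and 126.4, 189 and 273 CPM in BPA rats. It did not pass (log2 difference -1.08 ± 0.29 SE, edgeR adjusted p = 0.135). Paqr9, of the progestin and adipoQ receptor family, was at 65.9, 57.8 and 60.9 CPM in vehicle and 22.3, 18.4 and 17.2 CPM in BPA rats. Both groups were tight and far apart, and Paqr9 fell (log2 difference -1.67 ± 0.27 SE, edgeR adjusted p = 0.0151).

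The interferon-related genes did not move as 1 group. Ifi47, an interferon-induced GTPase, was at 253, 198 and 286 CPM in vehicle and 78.2, 79.7 and 37.6 CPM in BPA rats. BPA rat 3 was again the lowest, and Ifi47 fell (log2 difference -1.91 ± 0.352 SE, edgeR adjusted p = 0.0383). Parp9, an interferon-induced partner in ADP-ribosylation, was at 149, 149 and 151 CPM in vehicle and 78.7, 66.1 and 65.4 CPM in BPA rats. Each group was tight, and Parp9 fell (log2 difference -1.09 ± 0.21 SE, edgeR adjusted p = 0.0394). In the list of 30 MHC and interferon genes, however, 16 log2 differences were positive and 14 negative, 7 and 3 of them at an unadjusted p below 0.05 against 5.66% and 5.77% of all genes, and the median was 0.10. Clpx, the unfoldase of a mitochondrial protease, was at 155, 125 and 132 CPM in vehicle and 69.5, 52.1 and 65.4 CPM in BPA rats. The groups did not overlap, and Clpx fell (log2 difference -1.14 ± 0.20 SE, edgeR adjusted p = 0.0248). Slc35a3, a Golgi carrier of UDP-N-acetylglucosamine, was at 44.7, 47.8 and 82.3 CPM in vehicle and 23.1, 23.2 and 28.5 CPM in BPA rats. Vehicle rat 3 was the highest, and Slc35a3 fell (log2 difference -1.23 ± 0.244 SE, edgeR adjusted p = 0.0443). Hist1h2bh, a histone H2B gene whose reads may be shared with other histone genes, was at 119, 151 and 75.9 CPM in vehicle and 47.003, 39.6 and 56.9 CPM in BPA rats. The groups did not overlap, and Hist1h2bh fell (log2 difference -1.27 ± 0.244 SE, edgeR adjusted p = 0.0394). Alcam, an adhesion molecule, completed the genes that fell (log2 difference -0.97 ± 0.18 SE, edgeR adjusted p = 0.0394).

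**Figure D2:**
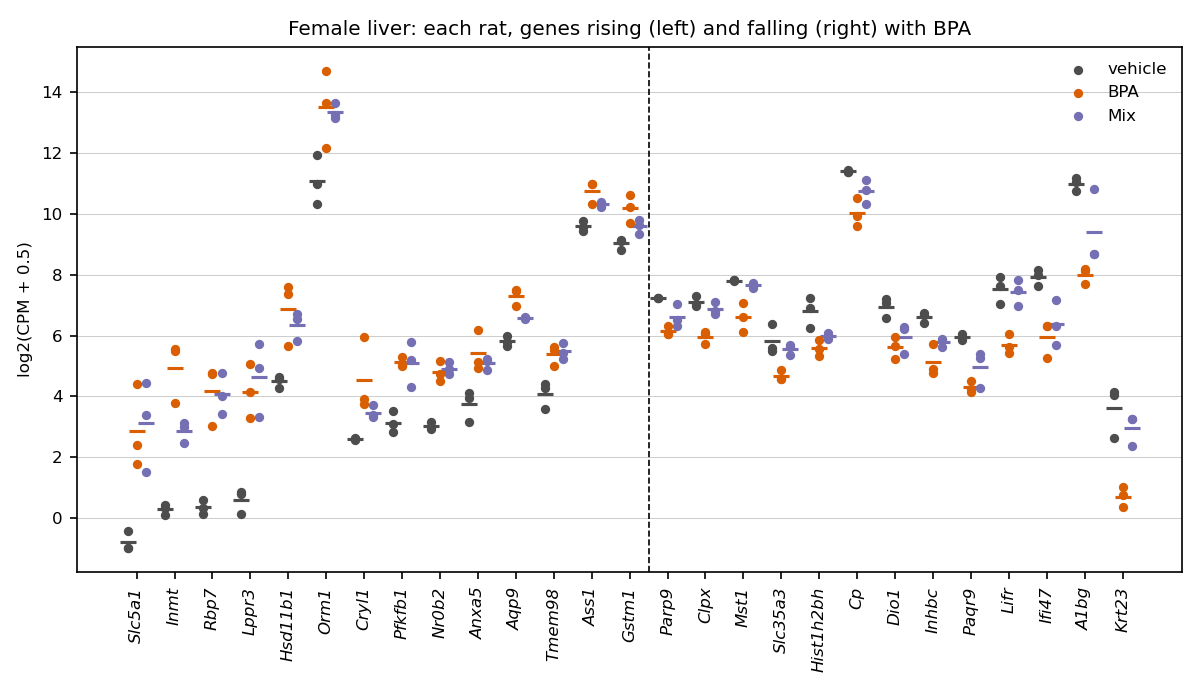
Log2(CPM + 0.5) in each female liver (vertical axis) for the 14 rising genes (left of the dashed line) and 13 falling genes (right) whose values are given per rat; points are rats, coloured by group, and short bars are group means. The BPA points lie wholly above or wholly below the vehicle points in each gene, while the BPA rats are spread most widely in Slc5a1, Orm1 and Cryl1, over 2.62, 2.55 and 2.21 log2 units.

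Several of the genes that fell were much lower in male than in female livers. In male vehicle livers, scaled with all liver libraries, Krt23 was at 0.0929, 0.242 and 0 CPM, A1bg at 0.371, 0.322 and 0.133 CPM and Lifr at 1.86, 0.645 and 4.78 CPM, far below the female vehicle rats. The size of the sex difference was tested between male and female Mix rats. Their means took no part in the BPA contrast, although the female Mix rats were in its estimate of spread. There, Krt23 (log2 difference, male minus female, -8.96, edgeR adjusted p = 1.04e-05), A1bg (log2 difference, male minus female, -10.25, edgeR adjusted p = 1.19e-08) and Lifr (log2 difference, male minus female, -5.84, edgeR adjusted p = 2.08e-08) were higher in females. Of the 16 genes that fell, 6 were higher in female Mix livers by the test (37.5%) against 2.50% of all genes tested, and of the 24 that rose, 4 were higher in males (16.7% against 2.49%), namely Inmt, Hsd11b1, Aqp9 and Gstm1. In these genes the vehicle rats of the 2 sexes were apart in the same direction, without overlap. A gene has to be well counted in female vehicle liver to fall there, and a low level leaves room to rise. The shares are partly fixed by this, all genes tested are not matched for level, and the counts are a description. In Inmt, Hsd11b1, Aqp9 and Gstm1 the female Mix rats were also above the female vehicle rats. The opposite counts were 5 rising genes higher in females (20.8% against 2.50%) and 2 falling genes higher in males (12.5% against 2.49%). In all 7 the female Mix rats lay on the same side of the female vehicle rats as the BPA rats, without overlap. Sex and mixture therefore cannot be told apart in these 7 by this test alone. Klk1c9 and Mboat2 had no counts in vehicle rats of either sex, Slc5a1 and Lppr3 were at most at 1.30 CPM in both, and the vehicle rats of the 2 sexes overlapped in Ngef (14.7, 11.01 and 16.5 CPM in females, 24.6, 20.6 and 13.5 CPM in males) and in Inhbc. Dio1 alone of these 7 was higher in male vehicle rats too (219.6, 159 and 155 CPM). With BPA the female level of A1bg was lower but still far from the male level: the lowest female BPA rat had 208 CPM and the highest male vehicle rat 0.371 CPM.

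Textbook sex-biased genes gave a mixed picture. In the list of 11 female-biased liver genes, 10 log2 differences were negative, 8 of them at an unadjusted p below 0.05 against 5.77% of all genes, the median was -0.76, and A1bg was the only call. Cyp2c12, the classic female-specific cytochrome P450 of rat liver, was at 2114, 2036 and 1437 CPM in vehicle and 912, 862 and 1283 CPM in BPA rats. These groups did not overlap, but the gene did not pass (log2 difference -0.87 ± 0.25 SE, edgeR adjusted p = 0.171). The list of 9 tested male-biased genes was not higher in BPA rats: 8 differences were negative (median -0.62) and none passed. Cyp3a2, a male-biased cytochrome P450, was at 5.797, 5.88 and 2.02 CPM in vehicle and 1.17, 1.16 and 0.928 CPM in BPA rats (log2 difference -2.05 ± 0.56 SE, edgeR adjusted p = 0.14). Cyp2c11, the main male-specific form, had too few counts to be tested, with 6, 4 and 1 counts in vehicle and 6, 2 and 0 in BPA rats. In the growth hormone and STAT5 list, Lifr was the only one of 19 genes to pass. Ghr, the growth hormone receptor, was at 247, 246 and 284 CPM in vehicle and 136, 125 and 178 CPM in BPA rats (log2 difference -0.82 ± 0.22 SE, edgeR adjusted p = 0.134). Igf1, its main secreted target, had a log2 difference of -0.43 ± 0.25 SE (edgeR adjusted p = 0.534). Esr1, the oestrogen receptor alpha, and Esrrg, the oestrogen-related receptor gamma, were below the filter. Esr1 had 0, 5 and 0 counts in vehicle and 0, 0 and 2 in BPA rats. Esrrg had 0, 0 and 3 counts in vehicle and 0, 6 and 0 in BPA rats. With so few counts no difference in either could be detected, and the reason for the low counts was not tested.

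**Figure D3:**
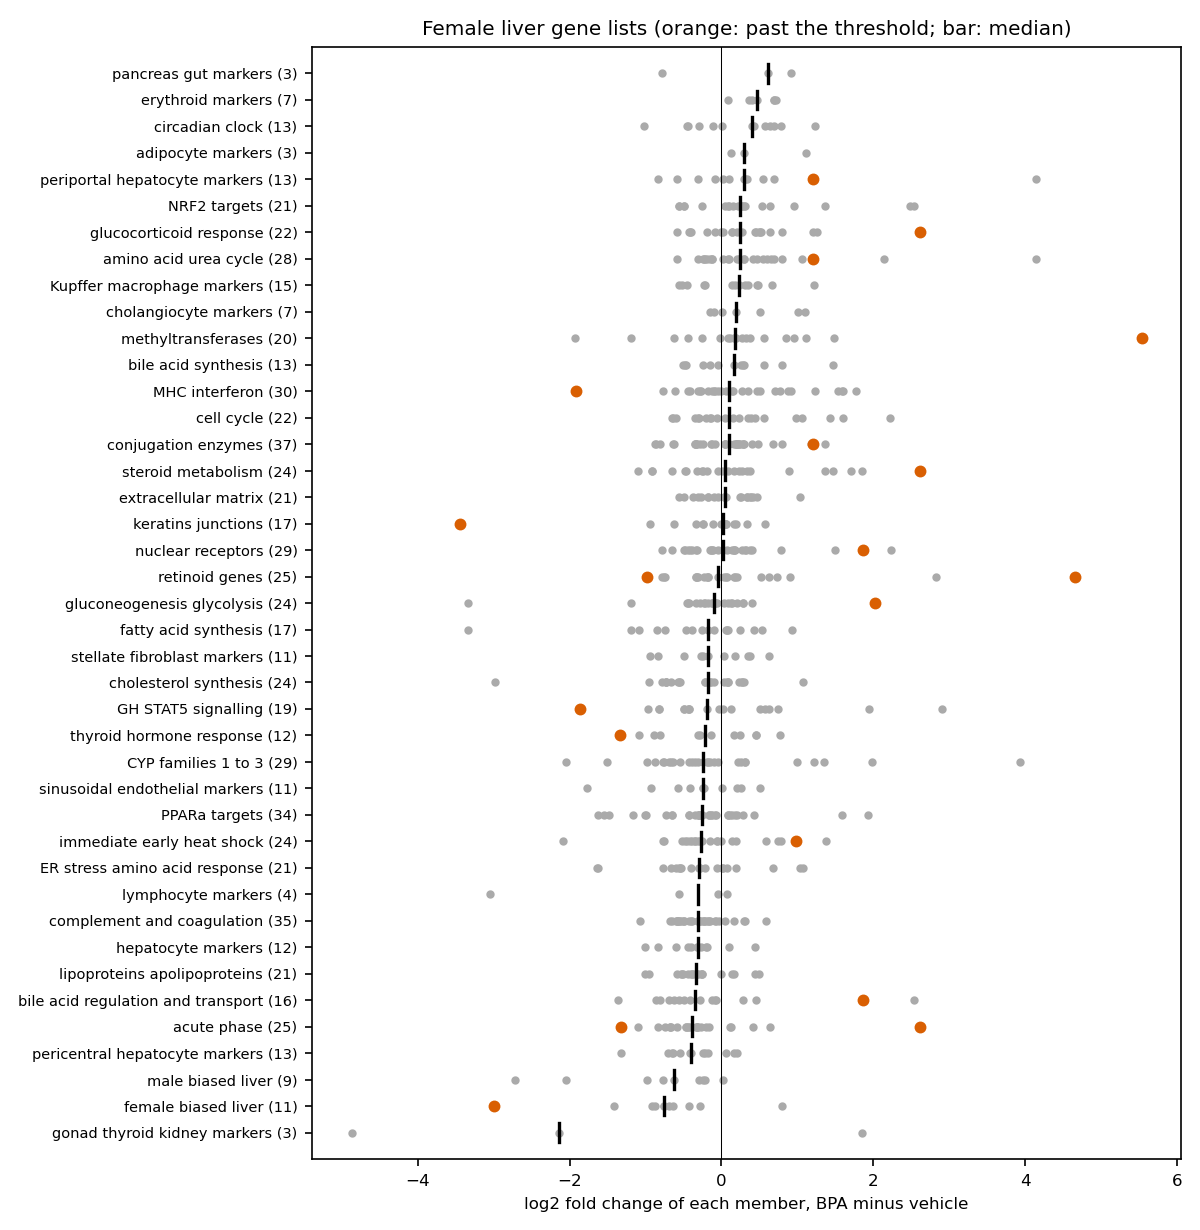
Log2 fold change, BPA minus vehicle (horizontal axis), of each tested member of 41 gene lists (vertical axis, number of tested members in brackets), ordered by median. Orange points passed the adjusted threshold, grey points did not, and black bars are list medians. Medians run from -2.14 to 0.61, both in lists with 3 tested members, and no list holds more than 2 calls.

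In some genes of foreign-chemical metabolism the BPA rats differed widely from each other. The SD of log2(CPM + 0.5) was larger among BPA than among vehicle rats in 17 of the 28 tested cytochromes P450 of families 1 to 3 (60.7%), against 56.1% of all genes. None of the 28 passed, 20 of 28 being negative and the smallest p at Cyp3a62 (log2 difference 1.35 ± 0.33 SE, edgeR adjusted p = 0.0997). Cyp2b1, the standard target of CAR, was at 11.4, 3.92 and 1.15 CPM in vehicle and 230.3, 23.05 and 2.94 CPM in BPA rats. Cyp2b2, whose reads may be shared with Cyp2b1, was at 31.5, 7.99 and 3.90 CPM in vehicle and 162.9, 8.69 and 0.464 CPM in BPA rats. BPA rat 1 was high in both, and BPA rat 3 lay within the vehicle range or below it (Cyp2b1 edgeR adjusted p = 0.165; Cyp2b2 edgeR adjusted p = 0.55). CAR itself (Nr1i3) was at 4.47, 4.98 and 4.33 CPM in vehicle and 35.8, 25.7 and 3.09 CPM in BPA rats, high in BPA rats 1 and 2 and at the control level in rat 3 (log2 difference 2.24 ± 0.66 SE, edgeR adjusted p = 0.179). PXR (Nr1i2) overlapped between groups (log2 difference 0.27 ± 0.20 SE, edgeR adjusted p = 0.674). Further genes on which the BPA rats differed were picked after their values had been seen. Ephx1, a microsomal epoxide hydrolase, was at 286, 209 and 205 CPM in vehicle and 1191, 310.0 and 303 CPM in BPA rats, and Akr7a3, an aldehyde reductase, at 23.7, 29.0 and 18.05 and 310.3, 36.3 and 49.8 CPM. Abcc3, an exporter of glucuronides, was at 8.70, 3.17 and 7.51 CPM in vehicle and 61.2, 42.05 and 9.13 CPM in BPA rats, with rats 1 and 2 high (log2 difference 2.53 ± 0.55 SE, edgeR adjusted p = 0.0651). It had the smallest p of 21 NRF2 targets, of which 16 were positive (median 0.25) and none passed. In Ephx1, Akr7a3 and Abcc3, unlike Cyp2b1 and Cyp2b2, every BPA rat lay above the vehicle rats, rat 3 only slightly so in Abcc3.

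Another set, also picked after its values were seen, was highest in BPA rat 3, with rat 2 high as well in Got1. Sds, the serine dehydratase that feeds gluconeogenesis, was at 7.73, 11.8 and 1.30 CPM in vehicle and 14.7, 39.3 and 314 CPM in BPA rats (log2 difference 4.14 ± 1.01 SE, edgeR adjusted p = 0.0997). Got1, a cytosolic aspartate aminotransferase, was at 44.0, 46.1 and 46.6 CPM in vehicle and 58.1, 223 and 319.9 CPM in BPA rats (log2 difference 2.13 ± 0.45 SE, edgeR adjusted p = 0.0566). Bhmt, which remethylates homocysteine with betaine, was at 994, 674 and 1237 CPM in vehicle and 1093, 1580.1 and 3624 CPM in BPA rats (log2 difference 1.12 ± 0.36 SE, edgeR adjusted p = 0.22). In all 3 genes rat 3 was the highest and rat 1 the lowest of the BPA rats, the reverse of Cyp2b1. Among the 24 genes that rose, BPA rats 1, 2 and 3 held the lowest of the BPA values in 5, 14 and 5. Among the 16 that fell they held it in 2, 3 and 11. The order of the rats was not counted over all genes, so these counts are a description.

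**Figure D4:**
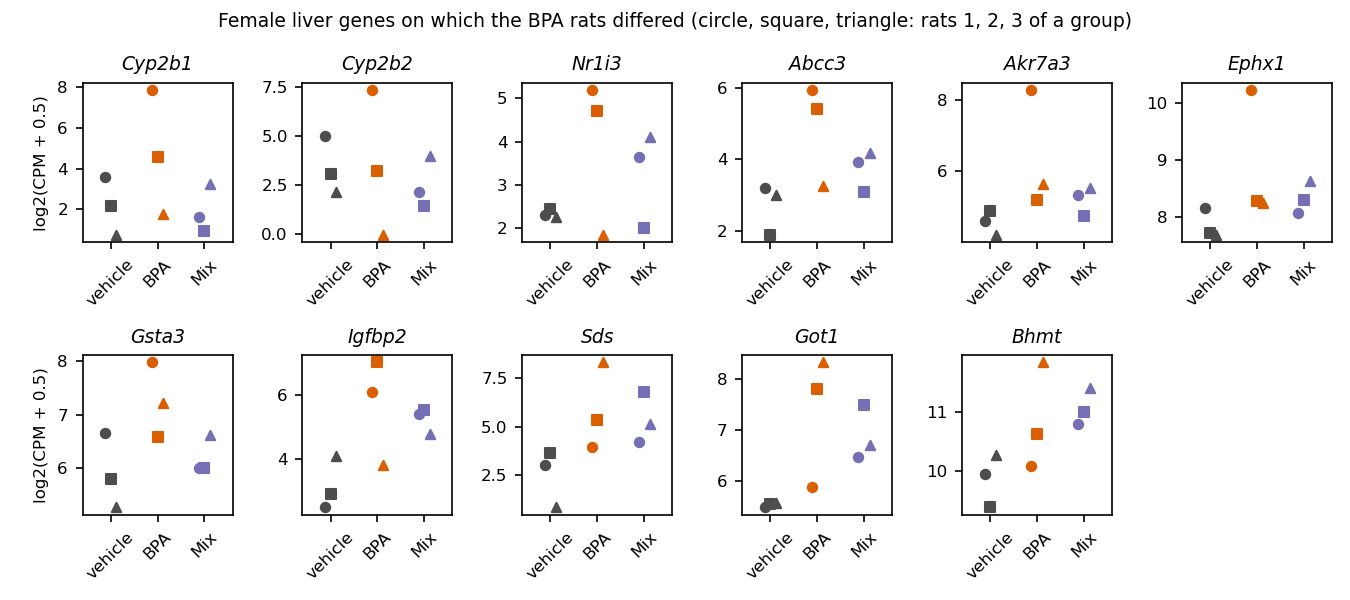
Log2(CPM + 0.5) (vertical axes, scaled separately) in each female liver for 11 genes on which the BPA rats differed from each other; circle, square and triangle are rats 1, 2 and 3 of a group. BPA rat 1 is high in Cyp2b1, Cyp2b2, Akr7a3 and Ephx1, and rats 1 and 2 in Nr1i3, Abcc3 and Igfbp2. Rat 3 is high in Sds and Bhmt, and rats 2 and 3 in Got1.

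The lists of lipid genes gave no call. Among 34 PPAR-alpha targets 24 differences were negative (median -0.26), the smallest p belonging to Fabp1, the liver fatty acid carrier, at 4165, 4480.1 and 3877 CPM in vehicle and 1714, 1805 and 2719 CPM in BPA rats (log2 difference -1.01 ± 0.236 SE, edgeR adjusted p = 0.0949). Cyp4a1, the standard target of peroxisome proliferators, overlapped between groups (log2 difference -0.43 ± 0.31 SE, edgeR adjusted p = 0.641). Fatty acid synthesis genes (17 tested, median -0.17) and cholesterol synthesis genes (24 tested, 15 negative, median -0.18) had no call either. Fasn, the fatty acid synthase, stood at -0.101 ± 0.44 SE on the log2 scale (edgeR adjusted p = 0.953). Hmgcs1, an early enzyme of cholesterol synthesis, had the smallest p of the cholesterol list (log2 difference -0.78 ± 0.21 SE, edgeR adjusted p = 0.136). In the endoplasmic reticulum stress list 14 of 21 differences were negative (median -0.29), without a call, the smallest p being that of the chaperone Pdia4 (log2 difference -0.77 ± 0.23 SE, edgeR adjusted p = 0.196). None of 22 cell cycle genes had an unadjusted p below the threshold, and Plk1, a mitotic kinase, came nearest (log2 difference 2.22 ± 1.06 SE, edgeR adjusted p = 0.443). The circadian list had 8 of 13 positive differences and a median of 0.40, and Clock, a core activator, the smallest p (log2 difference -1.02 ± 0.27 SE, edgeR adjusted p = 0.128). Extracellular matrix genes (21 tested) had a median of 0.05 and no call, with Fn1, fibronectin, nearest (log2 difference -0.56 ± 0.21 SE, edgeR adjusted p = 0.298).

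Whether the BPA difference depended on sex was tested over 18 liver libraries of both sexes, in which the male rats had the same treatments. The interaction passed in 21 of 10044 genes (0.209%), and 966 genes (9.62%) were at an unadjusted p below 0.05. Of the 21, 5 had passed in females. In each of the 21 the estimated differences had opposite signs in the 2 sexes. Choosing genes by this difference favours opposite signs, and the share over all genes was not counted. Some of these signs are within error, as that of Inmt in males (-0.30 ± 0.59 SE). For this comparison CPM were scaled over all 18 libraries and differ slightly from those given for female liver alone. Nr0b2 went from 8.17, 7.13 and 6.99 to 34.6, 25.3 and 21.7 CPM in females, a log2 difference of 1.87 ± 0.245 SE, and from 63.5, 40.3 and 54.7 to 21.7, 10.5 and 18.8 CPM in males, -1.64 ± 0.26 SE. All female BPA rats were above and all male BPA rats below their controls, and the difference between the sexes was 3.51 ± 0.36 SE, edgeR adjusted p = 3.55e-05. Inmt went from 0.817, 0.728 and 0.57 to 43.0, 12.9 and 45.6 CPM in females, and from 126.8, 50.4 and 20.03 to 66.6, 64.7 and 29.2 CPM in males, where the groups overlapped (female minus male 5.84 ± 0.98 SE, edgeR adjusted p = 0.0122). Female BPA rats thus had Inmt levels within the range of male vehicle rats in 2 of 3 cases.

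The other genes with the smallest interaction p had not changed in females by themselves. Mfsd2a, a transporter of lysophospholipids that carry omega-3 fatty acids, went from 117, 71.8 and 101 to 154, 199.6 and 151 CPM in females and from 226, 301 and 88.8 to 38.8, 44.3 and 56.6 CPM in males (female minus male 2.94 ± 0.43 SE, edgeR adjusted p = 0.00405). Onecut1, the hepatocyte transcription factor HNF6, went from 277, 441 and 564 to 367, 304 and 239.9 CPM in females, overlapping groups, and from 50.4, 29.5 and 45.8 to 124, 235 and 236 CPM in males (female minus male -2.74 ± 0.41 SE, edgeR adjusted p = 0.00415). Tsku, a secreted protein, went from 26.1, 30.4 and 25.7 to 106, 33.4 and 61.9 CPM in females and from 222, 187 and 52.8 to 25.4, 19.98 and 21.3 CPM in males (female minus male 4.08 ± 0.68 SE, edgeR adjusted p = 0.0122). Arhgap29, which switches off small GTPases, had a difference of -0.70 ± 0.18 SE in females and 0.86 ± 0.21 SE in males on the log2 scale (female minus male -1.56 ± 0.26 SE, edgeR adjusted p = 0.0122). Nr0b2, Mfsd2a, Onecut1 and Tsku passed with each of the 12 libraries left out in turn, Inmt in 11 and Arhgap29 in 9. The number of genes past the interaction threshold ranged from 5, without male vehicle rat 1, to 69, without male vehicle rat 3. Of the genes named above for female liver, Mknk2 (1.62 ± 0.29 SE, edgeR adjusted p = 0.0172), Pkdcc (1.99 ± 0.41 SE, edgeR adjusted p = 0.0468) and Cp (-1.71 ± 0.36 SE, edgeR adjusted p = 0.0494) also differed between the sexes, but passed in only 7, 2 and 3 of the 12 leave-one-out fits. Of the 40 genes, 34 were tested in male liver alone and 3 passed there, a share not set against all male genes. Nr0b2 went the opposite way to females. Orm1 rose in males too (log2 difference 2.62 ± 0.30 SE, edgeR adjusted p = 0.00311), and Mst1 fell (-1.14 ± 0.20 SE, edgeR adjusted p = 0.0261). Female minus male, the difference was -0.01 ± 0.64 SE for Orm1 and -0.01 ± 0.29 SE for Mst1.

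**Figure D5:**
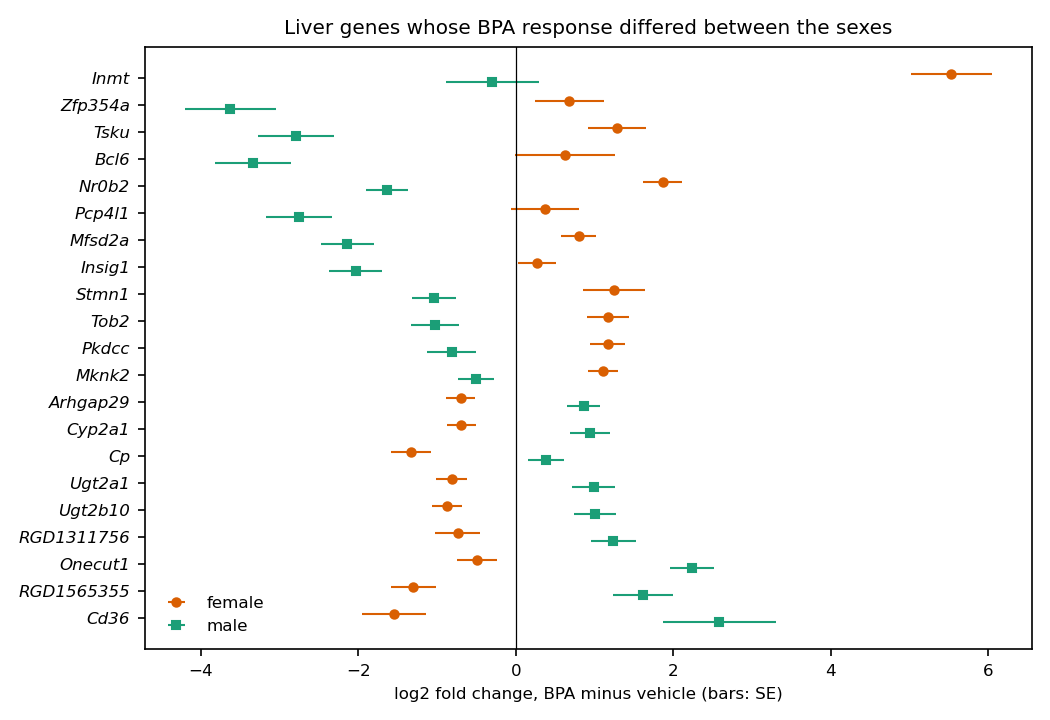
Log2 fold change, BPA minus vehicle (horizontal axis; bars are standard errors), in female (circles) and male (squares) livers for the 21 genes whose BPA difference depended on sex. The 2 sexes lie on opposite sides of 0 in every gene, which choosing genes by the difference between the sexes favours. The female estimate of Inmt, 5.53, is the farthest from 0.

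The bisphenol mixture, at the same total dose, was set directly against BPA in female liver. No gene passed between Mix and BPA rats in edgeR's test, with 621 of 9554 genes (6.50%) at an unadjusted p below 0.05, while DESeq2 called 39. The mixture holds BPA at 160 mg/kg/day in dams in place of 500 and adds bisphenol F and S, so that dose and compound differ together. Levels in Mix rats 1, 2 and 3 were 7.42, 5.05 and 8.29 CPM for Inmt, a log2 difference from BPA of -2.32 (95% interval -3.16 to -1.47), and 180.4, 226 and 125.98 CPM for Lifr, 1.77 (95% interval 1.18 to 2.35). Both intervals exclude 0 before adjustment, Mix rats having less Inmt and more Lifr than BPA rats. Nr0b2, at 25.8, 34.1 and 29.6 CPM, and Rbp7, at 26.9, 15.7 and 10.1 CPM, had intervals that include 0, with log2 differences of 0.09 (95% interval -0.39 to 0.58) and -0.20 (95% interval -1.10 to 0.71). Of the 24 genes that rose with BPA, 16 had an interval including 0 and 8 an interval below it, with less in Mix rats. Of the 16 that fell, 4 had an interval including 0 and 12 an interval above it, with more in Mix rats. The 40 genes were chosen on these same BPA rats, so these counts are a description.

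Rats with the same codes also gave ovary, thyroid and kidney, in which the 40 genes were read as a separate measurement. In ovary 31 of the 40 could be tested and 6 passed, against 6.79% of all 10871 ovary genes. Pkdcc had 34.97 to 37.4 CPM in vehicle and 67.7 to 113.03 CPM in BPA rats (log2 difference 1.19 ± 0.20 SE, edgeR adjusted p = 0.00537), and was higher with BPA in ovary as in liver. Parp9 had 197 to 227 CPM in vehicle and 109 to 168 CPM in BPA rats (log2 difference -0.74 ± 0.17 SE, edgeR adjusted p = 0.0228), and Hist1h2bh 164 to 176 CPM in vehicle and 58.4 to 77.97 CPM in BPA rats (log2 difference -1.32 ± 0.16 SE, edgeR adjusted p = 0.000764), both lower with BPA in the 2 organs. The other three went the opposite way to liver. Hsd11b1 had 46.8 to 54.5 CPM in vehicle and 10.6 to 35.2 CPM in BPA rats (log2 difference -1.33 ± 0.34 SE, edgeR adjusted p = 0.038). Orm1 had 57.4 to 136 CPM in vehicle and 3.98 to 11.1 CPM in BPA rats (log2 difference -3.73 ± 0.61 SE, edgeR adjusted p = 0.00519). Alcam had 13.1 to 24.3 CPM in vehicle and 45.7 to 58.7 CPM in BPA rats (log2 difference 1.54 ± 0.22 SE, edgeR adjusted p = 0.00206). In thyroid (32 genes tested) and kidney (36 tested, 2 rats in each group) none of the genes passed, nor did any gene of those organs by edgeR's test, while 8 of the 32 and 9 of the 36 were at an unadjusted p below 0.05, against 13.3% of all thyroid and 16.4% of all kidney genes. Inmt in thyroid had 51.1 to 154 CPM in vehicle and 34.7 to 61.0 CPM in BPA rats, the opposite direction to liver (log2 difference -1.26 ± 0.44 SE, edgeR adjusted p = 0.333). In kidney Inmt had 32.1 to 76.7 CPM in vehicle and 76.1 to 139 CPM in BPA rats (log2 difference 0.99 ± 0.46 SE, edgeR adjusted p = 0.322). Its unadjusted edgeR p in kidney was 0.0586, so it is not among the 9.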

How the data were processed

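Per the labels' protocols, TRIzol was used to extract total RNA and the QuantSeq 3' mRNA kit to make libraries, which gives reads near the 3' end of each transcript. FastQC, Bowtie2, bedtools, edgeR and the rat build rn6 are named in the submitters' processing notes, without versions. The table deposited by the authors holds whole-number counts of 17048 rows in 70 libraries. Whether strand was used and how reads with several alignments were counted is not given in the sources used here, so near-identical, overlapping and antisense genes are uncertain. Rows sharing a symbol (316 rows, 149 symbols) were kept apart.

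From these counts, edgeR 4.0.16 (R 4.3.3; TMM, filterByExpr, quasi-likelihood test, Benjamini-Hochberg over all genes tested, threshold 0.05) was fitted to 9 female liver libraries with 3 group means, and to 18 liver libraries for the interaction of BPA with sex. Alternatives used DESeq2 1.42.0, limma-voom (limma 3.58.1), other scalings and filters, and left out each library in turn. The fits were tested on simulated counts. No replicate pair was a near duplicate (chi-square per degree of freedom of at least 20.9). Depth limits counts near 0, and intervals from counts cover counting error only. Same-numbered vehicle and BPA rats did not deviate together (correlations -0.144 to -0.029), and the labels pair none.

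Of the 40 genes past the threshold, all are named except 1 that is not reported here; the counts include it. Values per rat are given for up to 14 genes each way whose log2 CPM averaged 2 or more. Each list is given with its passing members or its smallest p. Genes, lists and comparisons were chosen with earlier results of these data known, and examples outside these rules were chosen after their values were seen. Promoters came from RefSeq (GRCr8), matched by symbol. Mitochondrial marker genes were not analysed here.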

Additional observations from a re-analysis of the deposited data

Results flagged for a closer look

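The log2 difference between BPA and vehicle livers differed between female and male rats, by the interaction test over 18 libraries, in the 6 genes with the smallest p. Female minus male it was 3.51 ± 0.36 SE, edgeR adjusted p = 3.55e-05, for Nr0b2. The value was 2.94 ± 0.43 SE, edgeR adjusted p = 0.00405, for Mfsd2a. Onecut1 gave -2.74 ± 0.41 SE, edgeR adjusted p = 0.00415. Tsku gave 4.08 ± 0.68 SE, edgeR adjusted p = 0.0122. Inmt gave 5.84 ± 0.98 SE, edgeR adjusted p = 0.0122. Arhgap29 gave -1.56 ± 0.26 SE, edgeR adjusted p = 0.0122. The female and male differences had opposite signs in each of the 6, although the male groups overlapped for Inmt and the female groups for Onecut1. Choosing genes by the interaction favours opposite signs.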

How the results depend on the processing

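The 40 genes passed in 503 of the 800 combinations of gene and alternative that were run. They kept their direction in all 800, which was nearly fixed in advance because their groups do not overlap. Counts of changed genes moved more. In place of 40, DESeq2 gave 196 genes (92 rising, 104 falling), no low-count filter 229, the fit of the 6 vehicle and BPA libraries alone 14 and the ribosomal RNA share as a covariate 21; limma-voom gave 34 (16 rising, 18 falling). Leaving out 1 library gave 8 to 41. The 16 list members past the threshold became 55 with DESeq2, 64 without a filter and 9 with 6 libraries, and 7 to 20 with 1 library left out. For Mix against BPA, 0 genes became 39 with DESeq2, 86 without a filter and 0 to 7 with 1 library left out. The interaction gave 75 with DESeq2, 91 without a filter and 5 to 69 with 1 library left out, against 21. In thyroid, 0 of the named genes became 1 with RLE scaling and 0 to 7 with a library left out; in kidney 2 without a filter and 0 to 4; in ovary, where 6 passed, 4 to 6. The cause of these shifts was not tested. With the replicate number as a block, although the numbers pair no samples, BPA against vehicle gave 19 genes (17 of the 40), the lists 10, Mix against BPA 5 and the interaction, blocked within sex, 10.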

Other observations

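Markers of cell types other than hepatocytes were read for their most abundant members. Col3a1, a fibrillar collagen of stellate cells and fibroblasts, was at 82.6, 89.9 and 125.6 CPM in vehicle and 119, 127.3 and 141 CPM in BPA rats, and Lyve1, a receptor of sinusoidal endothelium, at 130.2, 147 and 153 and 122, 132 and 179.9 CPM. C1qc and C1qb, complement subunits made by Kupffer cells, had log2 differences of 0.235 ± 0.19 SE and 0.354 ± 0.242 SE. Anxa4 and Epcam, of the bile duct, had 33.9, 19.5 and 26.6 and 3.74, 3.47 and 5.49 CPM in vehicle against 46.3, 32.1 and 35.6 and 6.29, 11.9 and 9.13 CPM in BPA rats. The globin genes Hba1 and Hba2, whose reads may be shared, had log2 differences of 0.69 ± 0.27 SE and 0.69 ± 0.26 SE. None of these passed the test. Gpnmb, a glycoprotein of lipid-laden macrophages, had the smallest p of the Kupffer list, at 9.06, 8.90 and 10.4 CPM in vehicle and 17.1, 24.6 and 24.4 CPM in BPA rats (log2 difference 1.22 ± 0.26 SE, edgeR adjusted p = 0.0578).

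Genes of tissues other than liver were low but uneven. Tnp1, a spermatid nuclear protein, was at 17.8, 4.22 and 0.577 CPM in the female vehicle livers and 0.213, 0.347 and 0.155 CPM in the BPA livers (log2 difference -4.87 ± 1.07 SE, edgeR adjusted p = 0.0699), and Cpa1, a pancreatic enzyme, at 39.4, 38.6 and 4.76 and 40.8, 21.9 and 64.0 CPM. Of 11 neutrophil markers, 4 had no count in any of the 9 livers, as had 6 of 15 pancreas and gut markers.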
